A study of Drosophila melanogaster with 16 samples.

Results

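Genes whose symbol is CR followed by digits were described in 7 types of neuron of the developing visual system of the fruit fly (Drosophila melanogaster). Members were taken from the deposited table of RPKM values (read counts scaled by the length of the gene and the depth of the library) by their symbol and by a mean of at least 1 RPKM in at least 1 cell type. Among 15682 genes listed, 628 had such a symbol, 232 of these reached the level and 396 did not. The levels that chose the members were RPKM values of all 16 libraries, so levels and the place of the highest level are given as a description.

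The libraries were made from total RNA of cells sorted by flow cytometry from dissociated pupal brain tissue, and the genotype of every sample was given as wild type. R7 and R8, with 2 libraries each, are the inner photoreceptors of the eye, which send axons to the medulla. L1, L2, L4 and L5, with 2 libraries each, and L3, with 4, are lamina neurons, which carry signals from the outer photoreceptors to the medulla. The labels give the tissue of all groups as the optic lobe and disagree on age. Dissection was at 40 h after pupal formation for every sample by the protocol, whereas the samples' age entries are 65 h (R7), 96 h (R8), 24 h (L1), 35 h (L2), 40 h (L3), 45 h (L4) and 53 h (L5). The column headers of the deposited values carry the number 40 for every lamina library, as in the protocol, and no such number for R7 and R8. Should the age entries be right, type and age of the cells cannot be told apart in any comparison. The labels name no driver or marker for the sort, and do not say whether libraries of a type came from separate animals, so p-values measure the spread between libraries, which may be technical.

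CR symbols were given in fly annotation to genes thought not to encode a protein. The name covers long noncoding RNAs, which are transcribed like messenger RNAs, antisense RNAs, transcribed from the strand opposite another gene, and pseudogenes, copies of genes that have lost their reading frame. It also covers primary transcripts that are cut to release microRNAs or small nucleolar RNAs. Long noncoding RNAs are known for lower levels and more restricted expression than messenger RNAs. The current annotation gave an entry for 190 of the 232 members: 100 were long noncoding RNAs, 62 pseudogenes, 16 antisense RNAs, 6 ribosomal RNA (rRNA) genes or rRNA pseudogenes, 2 hairpin RNAs, 1 a small noncoding RNA (CR43701) and 3 genes that are now annotated as protein-coding (CR43051, CR43428 and CR43845). The other 42 members matched no entry and are named by their symbols only. The members are therefore called CR genes here and not noncoding RNAs.

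Cell type markers stood with the labels. The summed level of 4 photoreceptor markers (chp, gl, Pph13 and trp) lay between 1323 and 2381 RPKM in R7 and R8 libraries, against 5.48 to 95.9 RPKM in lamina libraries, with the upper end in L3. The sum of 8 lamina markers was 5.42 to 10.3 RPKM in R7 and R8 and 257 to 1289 RPKM in L1 to L5. Among markers of other cells, 5 glial genes summed to 18.1 to 27.7 RPKM in R libraries and 2.45 to 9.93 RPKM in L libraries. In R most of this was nrv2, at 17 to 21.2 RPKM, while repo, the defining glial factor, stayed between 0.15 and 1.18 RPKM. The sum of 4 blood cell genes was 0.297 to 0.671 RPKM in R libraries and 13.8 to 278 RPKM in L libraries, nearly all of it Pxn, and He and NimC1 were at or near 0 in every library. These markers moved with the split into R and L, and their part in differences of CR genes was not tested. Depth recovered from the values ran from 46.9 to 153.6 M reads, at which 3 reads on 1 kb of gene amount to 0.0195 to 0.064 RPKM. The labels do not say how rRNA was removed or whether polyadenylated RNA was selected.

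The L4 libraries stood apart for CR genes. On the log2(RPKM + 1) scale used below, 60 of the 232 members (25.9%) were more than 1 unit higher in L4 replicate 1 than in L4 replicate 2, against 7 (3.02%) the other way. Among the other genes tested these shares were 8.67% and 7.31%. In R7, R8 and L1, at most 2 members lay more than 1 unit above the other library of their type. Of 32 long noncoding RNAs with their highest mean in L4, 20 were more than 1 unit higher in L4 replicate 1, and 16 were below 1 RPKM in L4 replicate 2. CR43608 had 12.9 and 0 RPKM in the L4 libraries, CR43458 had 21.3 and 0.786 RPKM, and CR43823 had 10.1 and 0.00978 RPKM. A high mean in L4 therefore rested on a single library for many of these genes, and the counts for L4 are given below also without each L4 library.

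Most CR genes were low. The median of the highest type mean was 6.53 RPKM over the 232 members and 17.7 RPKM over the 9118 other genes that met the same level rule. By class that median was 3.75 RPKM for long noncoding RNAs, 3.2 RPKM for antisense RNAs, 6.17 RPKM for pseudogenes, 34.8 RPKM for the members with no entry and 76.8 RPKM for rRNA members. A mean of at least 100 RPKM in some type was reached by 23 members. All 7 types were at or above 1 RPKM for 86 members (37.1%), against 65.9% of the other genes, and 42 members (18.1%) were at that level in a single type, against 9.16%. Those 42 were 13 in L3, 11 in L5, 7 in L4, 5 in R8, 4 in R7 and 1 each in L1 and L2. The shares at 1 RPKM were not matched for level. A low gene can pass 1 RPKM in fewer types than a high gene of the same pattern.

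The highest mean of a member lay in L5 for 52, in L3 for 50, in L4 for 44, in R8 for 28, in R7 for 27, in L1 for 18 and in L2 for 13. Other genes had their highest mean most often in R7 (1847), L4 (1698) and R8 (1609), and least often in L3 (845). Without L4 replicate 1, the number of members highest in L4 was 32 in place of 44. The classes differed in place: 21 of the 42 members with no entry were highest in L5, and 4 of the 6 rRNA members in R7.

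**Figure D1:**
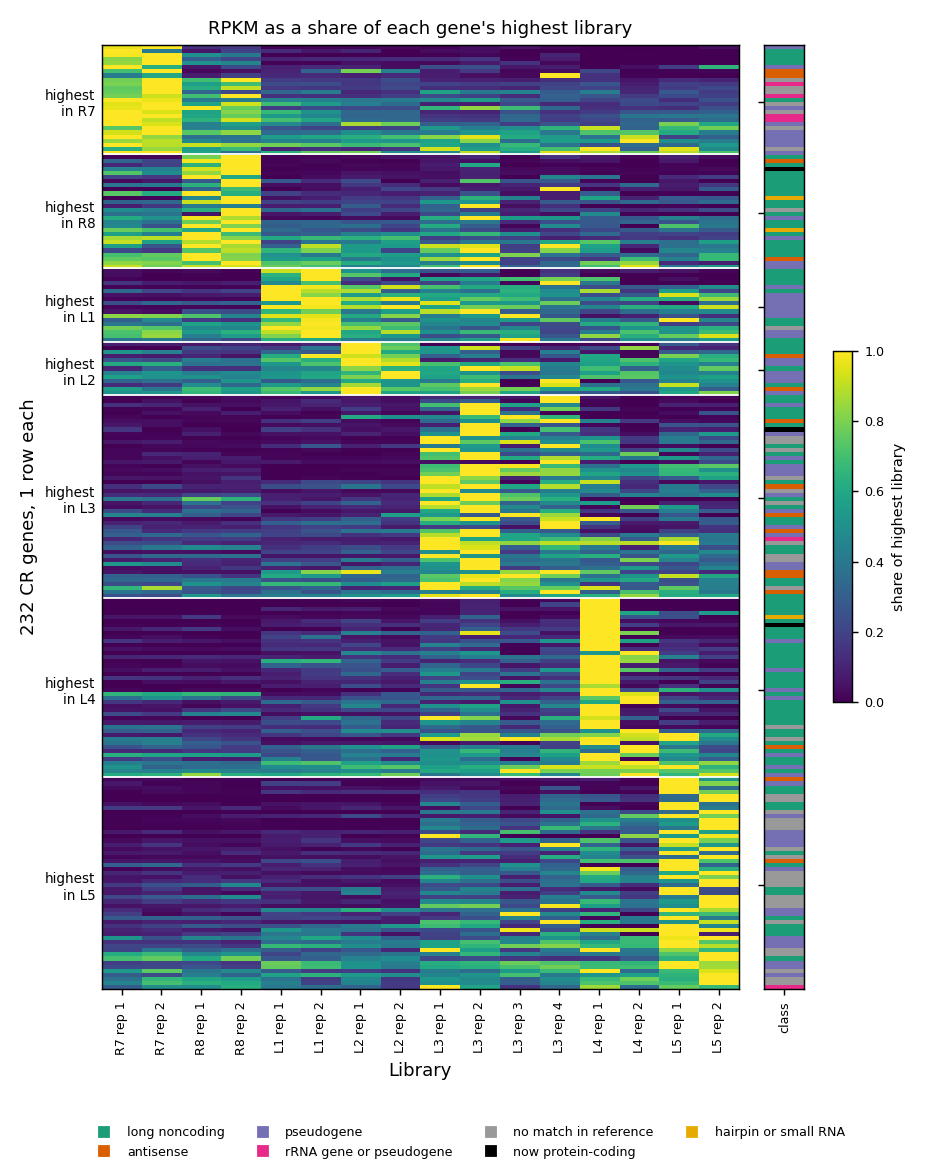
RPKM of each of the 232 CR genes (rows, grouped by the cell type with the highest mean) in each of the 16 libraries (columns), as a share of the gene's highest library from 0 (dark) to 1 (yellow), with the annotated class in the strip at the right. Blocks for L3, L4 and L5 hold 50, 44 and 52 genes, and many rows of the L4 block are bright in L4 replicate 1 and dark in L4 replicate 2.

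At the edge of the level rule, CR43704 (highest mean 1.0020 RPKM, in L2) and CR43620 (1.0345 RPKM, in L1) were the members nearest to it. CR43855 (0.9937 RPKM, in L4) and CR43087 (0.9709 RPKM, in R7) lay just outside. Leaving out a single library took between 0 and 7 members below 1 RPKM, the most without L3 replicate 2. A single library of a type can thus decide membership at the edge but not for most members.

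The 10 most abundant members, by the mean of the 7 type means, were present in all 7 types. CR40469, a long noncoding RNA, had 8648 and 7087 RPKM in R7, 15032 and 19392 RPKM in R8, and 2374 to 7753 RPKM with a median of 5882 RPKM in the 12 lamina libraries. CR34335, also a long noncoding RNA, had 2640 and 2782 RPKM in R7, 7529 and 8200 RPKM in R8, and 820 to 4386 RPKM (median 2212 RPKM) in lamina neurons. Both R8 libraries stood above every other library for both genes, while R7 overlapped the lamina. The difference of R from L on the log2(RPKM + 1) scale was 1.03 ± 0.28 for CR40469 (limma, adjusted p = 0.00592) and 1.14 ± 0.35 for CR34335 (adjusted p = 0.0127), where ± is the standard error. Under quantile normalization these became 0.27 (adjusted p = 0.225) and 0.52 (adjusted p = 0.154), so neither call held there. The difference of R7 from R8 was -1.12 ± 0.47 (adjusted p = 0.196) and -1.54 ± 0.60 (adjusted p = 0.154), and neither passed the test.

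CR31451, the long noncoding RNA now called mimi, varied less than any other of these 10. It had 196 and 192 RPKM in R7, 206 and 188 RPKM in R8, 182 and 197 RPKM in L1, 215 and 179 RPKM in L2, 260, 241, 432 and 345 RPKM in L3, 340 and 344 RPKM in L4 and 317 and 317 RPKM in L5. Each L3, L4 and L5 library was above every R7, R8, L1 and L2 library. The difference of R from L was -0.43 ± 0.14 (adjusted p = 0.0203), and it missed the threshold without R7 replicate 1 (0.0597), R7 replicate 2 (0.067) or R8 replicate 2 (0.0817).

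For R against L, 129 members would have met the level rule without the R libraries and also without the L libraries, and only for these is a test given. Of the 129, 40 were higher in R and 43 were lower. Over all 9346 genes tested, 31.7% were higher and 30.2% lower, and over other genes under the same condition 35.2% and 27.4%. The shares of the 129 members were 31% and 33.3%, near that background. The median difference was 0.07 over these members and 0.10 over the 7374 other genes that met the same condition. By class, 15 of 41 long noncoding RNAs rose in R and 12 fell, 9 of 36 pseudogenes rose and 12 fell, and 4 of 6 rRNA members rose and 1 fell. None of 9 antisense RNAs rose and 5 fell. In these bulk libraries, fewer cells that express a gene and less RNA per cell cannot be told apart.

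**Figure D2:**
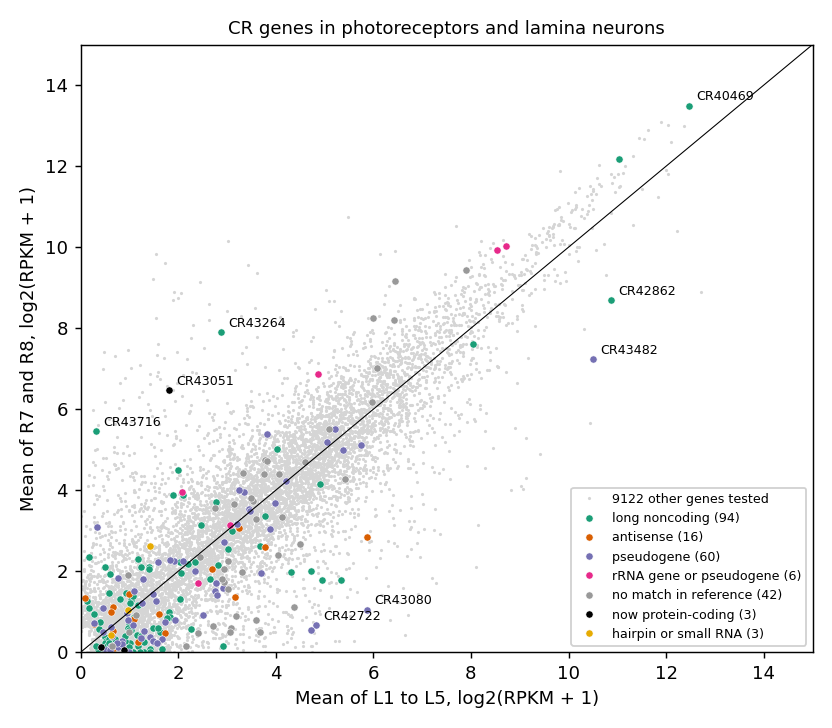
Mean of R7 and R8 (vertical axis) against the mean of L1 to L5 (horizontal axis), both in log2(RPKM + 1), for the 224 CR genes tested, coloured by class, and the other genes tested in grey; the line marks equal levels. CR43264, CR43051 and CR43716 lie far above the line, CR43080 and CR42722 far below it, and the 129 CR genes with a test had 40 calls above and 43 below.

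Every R library was above every L library for 19 members (8.19%), against 14.8% of all genes tested. The long noncoding RNA CR43716 was close to absent from the lamina. It had 63.2 and 63.8 RPKM in R7 and 31.9 and 25.7 RPKM in R8, against 0 to 6.56 RPKM (median 0.115 RPKM) in lamina libraries. The highest lamina value came from L3 replicate 4, and the other 11 lamina libraries were at 1.07 RPKM or less. Its difference was 5.14 ± 0.38 (adjusted p = 9.69e-08), and the level of L3 that allowed this test rested on L3 replicate 4. The gene lies on the same strand within the span of dpy, with no overlap of exons, and dpy encodes a giant protein of the apical extracellular matrix. The mean of dpy was at most 0.307 RPKM in any type.

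CR43264, a long noncoding RNA, was more abundant. It had 235 and 157 RPKM in R7 and 272 and 323 RPKM in R8, against 1.42 to 29.4 RPKM (median 8.43 RPKM) in lamina libraries. The groups did not overlap, and within the lamina L2 and L3 were higher than L4 and L5. The photoreceptor marker trp was at 11.3 to 32.2 RPKM in L3 and at 0.424 and 1.05 RPKM in L2. Its part in these levels was not tested. The difference was 5.02 ± 0.26 (adjusted p = 2.89e-09). The gene lies opposite CG15765 without overlap of exons, and the levels of that gene did not follow it (r = -0.23 over the 7 type means).

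CR43051 is now annotated as the protein-coding gene CG43051, and a small nucleolar RNA gene covers 26% of its exons. It had 59.5 and 58.9 RPKM in R7 and 125 and 134 RPKM in R8, against 0.736 to 13.2 RPKM (median 2.45 RPKM) in lamina libraries. R8 was above R7, and L3 held the highest lamina values. Whether the photoreceptor markers in L3 libraries had a part in those values was not tested. The difference was 4.66 ± 0.25 (adjusted p = 5.36e-09).

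CR43700, a long noncoding RNA, had 9.27 and 10 RPKM in R7 and 15.7 and 24.4 RPKM in R8, against 0.746 to 8.36 RPKM (median 2.86 RPKM) in lamina libraries. The nearest lamina library was L4 replicate 2. The difference was 2.0 ± 0.26 (adjusted p = 2.58e-05). The pseudogene CR14033 had 17.8 and 18.4 RPKM in R7 and 2.56 and 3.12 RPKM in R8, against 0 to 1.1 RPKM (median 0.239 RPKM) in the lamina. No lamina type of CR14033 reached 1 RPKM, so its difference of 2.75 is given with no test.

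CR41540 and CR40766, which matched no entry, and the 18S rRNA pseudogene CR41602 were also higher in R. CR41540 had 529 and 668 RPKM in R7 and 465 and 672 RPKM in R8, against 41.8 to 161 RPKM (median 86 RPKM) in lamina libraries. CR40766 had 282 and 375 RPKM in R7 and 233 and 339 RPKM in R8, against 38.6 to 87.2 RPKM (median 64.2 RPKM). CR41602 had 123 and 154 RPKM in R7 and 86.7 and 107 RPKM in R8, against 11.7 to 40.5 RPKM (median 29.9 RPKM). None of the 3 overlapped between R and L, and the differences were 2.72 ± 0.21, 2.25 ± 0.21 and 1.99 ± 0.22 (adjusted p = 1.46e-07, 8.90e-07 and 6.13e-06).

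Every R library was below every L library for 23 members (9.91%), against 11.7% of all genes tested. The pseudogene CR43080 had 1.1 and 1.14 RPKM in R7 and 1.01 and 1.05 RPKM in R8, against 25 to 105 RPKM (median 64.7 RPKM) in lamina libraries. It was highest in L1, with 105 and 103 RPKM, and lowest among lamina types in L4, with 25 and 29.6 RPKM. Its difference of -4.81 ± 0.16 was the greatest fall among the members tested here (adjusted p = 6.54e-11).

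The neighbouring pseudogenes CR42722 and CR42723 lie next to each other on the same strand. CR42722 had 0.708 and 0.578 RPKM in R7 and 0.606 and 0.464 RPKM in R8, against 14.1 to 36.8 RPKM (median 28.6 RPKM) in lamina libraries. CR42723 had 0.484 and 0.54 RPKM in R7 and 0.434 and 0.436 RPKM in R8, against 12.5 to 34.6 RPKM (median 25.1 RPKM). Their levels followed each other (r = 1.0 over the 7 type means), and both differed by -4.16, given with no test because neither reached 1 RPKM in R7 or R8. If the pair shares sequence, the counting may have split reads between them.

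CR43482, a pseudogene, was the most abundant pseudogene among the members. It had 124 and 115 RPKM in R7 and 180 and 195 RPKM in R8, against 604 to 2497 RPKM (median 1518 RPKM) in lamina libraries. Among lamina types it was highest in L1 (2497 and 2054 RPKM) and lowest in L4 (604 and 713 RPKM). The difference was -3.27 ± 0.13 (adjusted p = 2.34e-10). The pseudogene CR43483, which touches it on the other strand, followed it at a lower level (r = 0.90) and differed by -0.84 ± 0.15 (adjusted p = 0.000331). CR43483 also overlaps Hsp27 on the opposite strand over 10.5% of its exonic bases.

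Long noncoding and antisense RNAs gave the other 4 examples of a fall in R. CR43910, which lies within the span of rhea, the gene of the adhesion protein talin, had 2.42 and 3.4 RPKM in R7 and 2.95 and 1.33 RPKM in R8, against 19.1 to 119 RPKM (median 35.2 RPKM) in lamina libraries. CR43433, antisense to Rbp6, had 7.83 and 5.32 RPKM in R7 and 5.79 and 5.89 RPKM in R8, against 14.8 to 130 RPKM (median 68.6 RPKM). Rbp6 itself averaged 27.3 RPKM in R7 and 53.6 RPKM in R8, against 395 to 793 RPKM in lamina types (r = 0.83 over the 7 type means). It covers 5.03% of the exonic bases of CR43433, and without a known strand setting reads there cannot be told apart. The differences were -3.56 ± 0.40 for CR43910 (adjusted p = 5.22e-06) and -3.04 ± 0.33 for CR43433 (adjusted p = 4.59e-06).

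The long noncoding RNAs CR43995 and CR42767 showed smaller differences. CR43995 had 3.01 and 3.68 RPKM in R7 and 3.67 and 2.04 RPKM in R8, against 13.4 to 80.3 RPKM (median 26.4 RPKM). CR42767 had 3.44 and 4.19 RPKM in R7 and 2.64 and 1.96 RPKM in R8, against 7.74 to 34.5 RPKM (median 16.2 RPKM). In L3, CR42767 was at 33.7 RPKM in replicate 3 and at 7.74 to 8.97 RPKM in the other libraries. The differences were -2.71 ± 0.32 and -2.31 ± 0.30 (adjusted p = 1.03e-05 and 1.86e-05).

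**Figure D3:**
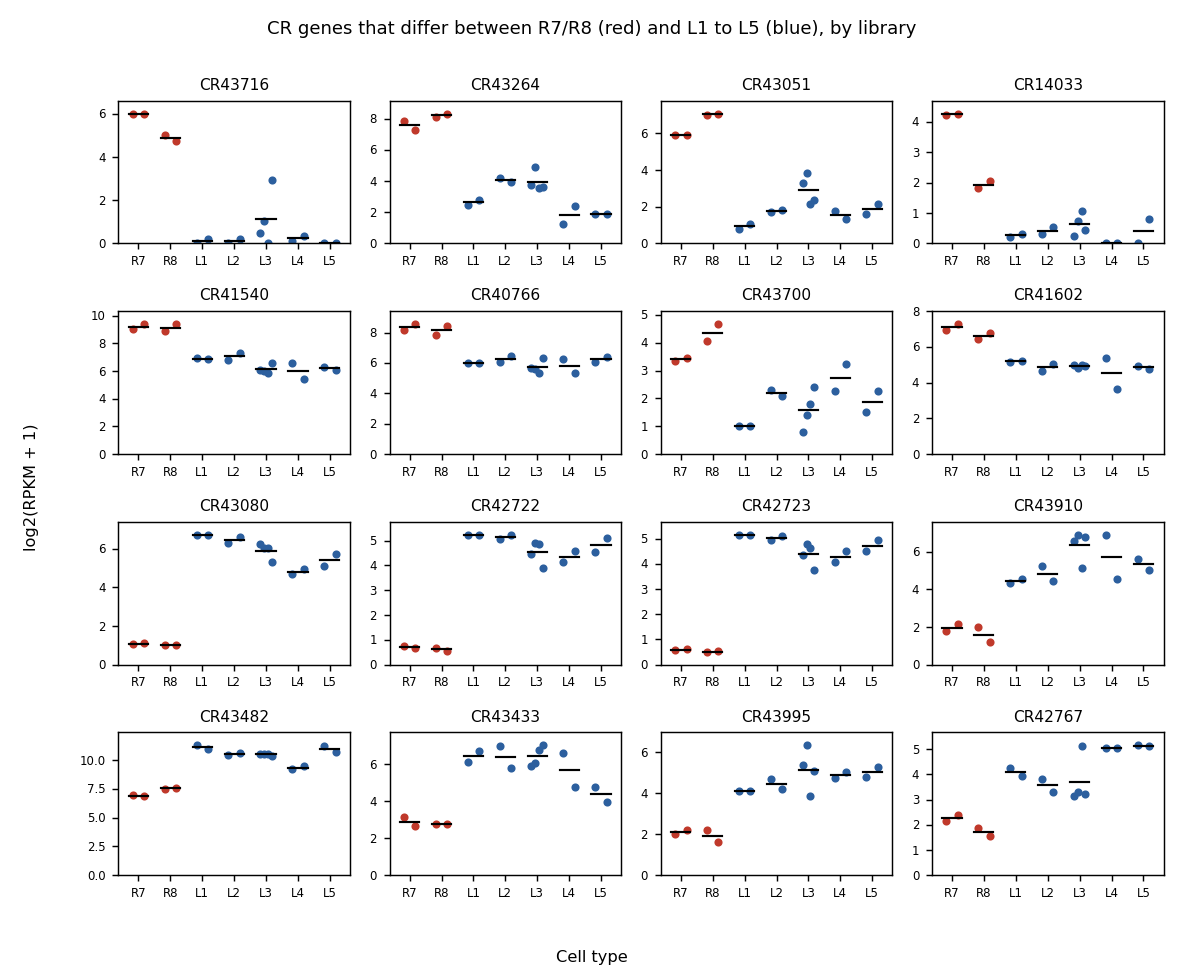
Log2(RPKM + 1) of 16 CR genes in each library (points) with type means (bars), for R7 and R8 in red and L1 to L5 in blue. The upper 8 genes were higher in every R library than in every L library and the lower 8 were lower; in CR43716 only L3 replicate 4, at 6.56 RPKM, stands clear of the other lamina libraries.

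For R7 against R8, 216 members tested would have met the level rule without either type. Of these 9 were higher in R7 and 3 were lower (4.17% and 1.39%), against 3.2% and 7.14% of all genes tested, and 2.81% and 6.54% of other genes under the same condition. Both R7 libraries were above both R8 libraries for 68 members (29.3%), against 36.3% of all genes tested, and below them for 75 (32.3%), against 33.7%. The count of 9 depended on the libraries used: it was 5 without any 1 of the L1 and L2 libraries and 2 without any 1 of the R7 and R8 libraries. The count of 3 was 5 without L3 replicate 3 and 1 without R7 replicate 1.

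CR31044, a long noncoding RNA, separated the 2 photoreceptors most. It carries the genes of the microRNAs mir-279 and mir-996 in its exons, which are known in the fly eye to restrain signalling through a receptor tyrosine kinase. It had 0.141 and 0.195 RPKM in R7, against 10.2 and 12.9 RPKM in R8, and 0.0821 to 1.88 RPKM in lamina libraries. R8 stood above every other library. The difference of R7 from R8 was -3.42 ± 0.40 (adjusted p = 8.54e-05), and the call held in every alternative that was run. The microRNA genes themselves were listed at 0 in all libraries, so their mature forms were not measured.

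The pseudogene CR14033 went the other way, with the values given above, and its difference of R7 from R8 was 2.32 ± 0.29 (adjusted p = 0.000153). The call missed the threshold with a pseudocount of 0.1 (adjusted p = 0.073). Of its exonic bases 10.3% lie opposite tkv, a receptor of the bone morphogenetic protein pathway, at 4.58 RPKM in R7 and 2.78 RPKM in R8. CR43460, antisense to rdx, the gene of an adaptor that sends proteins to degradation, had 2.68 and 3.84 RPKM in R7, against 0.0884 and 0.174 RPKM in R8. The R7 and R8 libraries did not overlap, and the difference was 1.90 ± 0.33 (adjusted p = 0.0021). The level of rdx ran against that of CR43460 over the 7 type means (r = -0.83).

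CR40685 and CR41583, which matched no entry, had 205 and 268 RPKM and 110 and 145 RPKM in R7, against 87.4 and 57.2 RPKM and 47.4 and 35.1 RPKM in R8. The differences were 1.71 ± 0.50 and 1.61 ± 0.45 (adjusted p = 0.0468 and 0.0382). Both calls were lost without any 1 of the R7, R8, L1 and L2 libraries, without the filter on low values and under quantile normalization. That of CR40685 was also lost without L3 replicate 1, 2 or 3, without either L5 library and with a pseudocount of 0.1. The adjusted p over those alternatives was 0.05 to 0.329 for CR40685 and 0.0549 to 0.27 for CR41583. The other 5 members called higher in R7 were CR12842, CR42861, CR43698, CR43699 and CR43978, with differences between 0.93 and 1.26. Among them the long noncoding RNA CR42861 had 49.3 and 47.8 RPKM in R7, against 20.2 and 20.8 RPKM in R8.

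In R8, CR43838 had 6.81 and 5.87 RPKM, and in R7 0.553 and 0.65 RPKM. The difference of R7 from R8 was -2.19 ± 0.44 (adjusted p = 0.00558), and it missed the threshold without R7 replicate 1 (0.0512) or R8 replicate 1 (0.0524). The hairpin RNA CR32207, of a class of long folded transcripts that are cut into small interfering RNAs, had 0 and 0.0878 RPKM in R7, against 2.09 and 4.5 RPKM in R8. Its difference was -1.98 ± 0.47 (adjusted p = 0.015), lost without R7 replicate 1 (0.108), R7 replicate 2 (0.085) or R8 replicate 2 (0.185). CR42549, a long noncoding RNA, had 1.88 and 1.39 RPKM in R7, against 6.14 and 7.54 RPKM in R8, and the difference of -1.57 ± 0.65 did not pass the test (adjusted p = 0.189).

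Among the lamina types, 101 members were at or above 1 RPKM in all 5, and 65 of these (64.4%) differed among the types by limma's F-test, against 44.6% of all genes tested and 42.5% of other genes at that level. By class these were 13 of 29 long noncoding RNAs, 21 of 31 pseudogenes, 5 of 6 antisense RNAs, 3 of 6 rRNA members and 23 of 28 members with no entry. Without the rRNA members and those with no entry the count was 39 of 67 (58.2%).

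Each lamina type was then set against the mean of the other 4, which ties the 5 comparisons to each other. In L1, 14 of 162 members (8.64%) were higher and 32 (19.8%) lower, against 9.53% and 11.6% of all genes tested, and 10.4% and 10.8% of other genes under the same condition. In L2, 13 of 167 (7.78%) were higher and 33 (19.8%) lower, against 12% and 9.59% of all genes, and 13.3% and 7.88% of other genes. The median difference of these members was -0.11 in L1 and -0.08 in L2, against -0.10 and 0.06 over all genes tested.

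In L3, 52 of 190 members (27.4%) were higher and 16 (8.42%) lower, against 12.5% and 10% of all genes tested, and 11.5% and 9.96% of other genes. In L4, 44 of 187 (23.5%) were higher and 15 (8.02%) lower, against 11.5% and 12.3% of all genes, and 11.5% and 12.2% of other genes. In L5, 50 of 177 (28.2%) were higher and 12 (6.78%) lower, against 8.58% and 8.89% of all genes, and 8.3% and 7.93% of other genes. The median difference was 0.28 in L3, 0.28 in L4 and 0.18 in L5, against -0.01, -0.02 and -0.03 over all genes tested. The members with no entry made up much of this: 23, 17 and 25 of 41 were higher in L3, L4 and L5, and 20 and 22 of 35 were lower in L1 and L2. Without them and the rRNA members, the shares higher were 19.6% in L3, 19.3% in L4 and 18.5% in L5, and the shares lower were 9.09% in L1 and 7.94% in L2. Some members with no entry, such as CR40621 and CR41590, had similar values across libraries and may not count as separate genes. The counts higher were 30 in L4 without L4 replicate 1 and 52 without L4 replicate 2. They were 25 in L5 without L5 replicate 1 and 29 without L5 replicate 2, 3 and 7 in L1 without L1 replicates 1 and 2, and 6 and 8 in L2 without L2 replicates 1 and 2.

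Members with every library of a lamina type above every library of the other 4 types numbered 13 (5.6%) in L1, 6 (2.59%) in L2, 11 (4.74%) in L3, 13 (5.6%) in L4 and 19 (8.19%) in L5. Over all genes tested, these shares were 7.61% in L1, 9.3% in L2, 4.06% in L3, 5.57% in L4 and 4.53% in L5.

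For L1 the long noncoding RNA CR43990 had 3.84 and 4.17 RPKM in L1, against 0 to 2.14 RPKM (median 0.454 RPKM) in the other lamina libraries. It was near 0 in R7 and R8, at 0.166 RPKM or less. The difference was 1.65 ± 0.25 (adjusted p = 0.000335). CR41621, which matched no entry, had 238 and 191 RPKM in L1, against 27.1 to 149 RPKM (median 64.5 RPKM) in the others. Its difference was 1.65 ± 0.32 (adjusted p = 0.00255), and the call missed the threshold without L1 replicate 1 (0.065). R7 and R8 were also high for CR41621, at 332 and 347 RPKM in R7 and 203 and 323 RPKM in R8, a difference of R from L of 1.79 ± 0.24 (adjusted p = 3.00e-05).

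For L2 the long noncoding RNA CR43495 had 44.4 and 32.2 RPKM in L2, against 0.0353 to 12.7 RPKM (median 0.764 RPKM) in the other lamina libraries. L5, at 12.7 and 6.61 RPKM, came next, and R7 and R8 lay between 2.92 and 4.38 RPKM. The difference was 3.66 ± 0.28 (adjusted p = 8.93e-07). The gene lies opposite CG42594 without overlap of exons, and CG42594 also had its highest mean in L2, at 11.6 RPKM. CR43460 had 3.04 and 1.68 RPKM in L2, against 0 to 1.22 RPKM (median 0.216 RPKM) in the others, a difference of 1.31 ± 0.26 (adjusted p = 0.00328) that was lost without L2 replicate 1 (0.0812). CR43460 was thus high in R7 and L2 and low elsewhere.

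For L3 the long noncoding RNA CR43899 had 24.7, 41.5, 32.2 and 26 RPKM in L3, against 0 to 6.64 RPKM (median 1.44 RPKM) in the other lamina libraries. In L4 and L5 it was at 0.361 RPKM or less, whereas R7 had 16.4 and 15.4 RPKM and R8 had 31.7 and 27 RPKM. The difference of L3 from the other 4 types was 3.73 ± 0.16 (adjusted p = 2.86e-09), and that of R from L was 2.51 ± 0.16 (adjusted p = 2.02e-08). L3 libraries also held low levels of photoreceptor markers, chp at 19.3 to 59.1 RPKM against 875 to 1371 RPKM in R, whose part in the L3 level of CR43899 was not tested. The pseudogene CR43086 had 12.7, 18.2, 10.5 and 8.63 RPKM in L3, against 0.0328 to 1.8 RPKM (median 1.29 RPKM) in the other lamina libraries, a difference of 2.71 ± 0.17 (adjusted p = 7.90e-08). R7 and R8 had 2.55 RPKM or less.

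For L4 the long noncoding RNA CR43242 had 21.4 and 20.3 RPKM in L4, against 0.687 to 5.9 RPKM (median 1.85 RPKM) in the other lamina libraries. It did not share the gap between the L4 libraries, and R7 and R8 were also high, at 13 to 14.2 RPKM. The difference was 2.93 ± 0.19 (adjusted p = 2.09e-07). CR43838 had 119 and 100 RPKM in L4, against 2.83 to 78.7 RPKM (median 21.8 RPKM) in the others. L1 came next, at 74.4 and 78.7 RPKM, and L5 was lowest, at 6.18 and 2.83 RPKM. The difference for L4 was 2.31 ± 0.35 (adjusted p = 0.000381) and that for L5 was -3.18 ± 0.35 (adjusted p = 2.10e-05).

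For L5, CR41613, which matched no entry, had 42.3 and 122 RPKM in L5, against 0.0116 to 38.7 RPKM (median 13 RPKM) in the other lamina libraries. L3 and L4 lay between 9.81 and 38.7 RPKM, and L1 and L2 were near 0. The difference was 3.91 ± 0.42 (adjusted p = 1.92e-05). CR43464, antisense to CG33543, had 6.9 and 3.61 RPKM in L5, against 0.00681 to 0.562 RPKM (median 0.14 RPKM) in the other lamina libraries. It was below 1 RPKM in every other type, so its difference of 2.39 is given with no test. CG33543 averaged 336 RPKM in L5 and 22.9 RPKM in L4, and without a known strand setting, reads of the pair cannot be told apart.

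**Figure D4:**
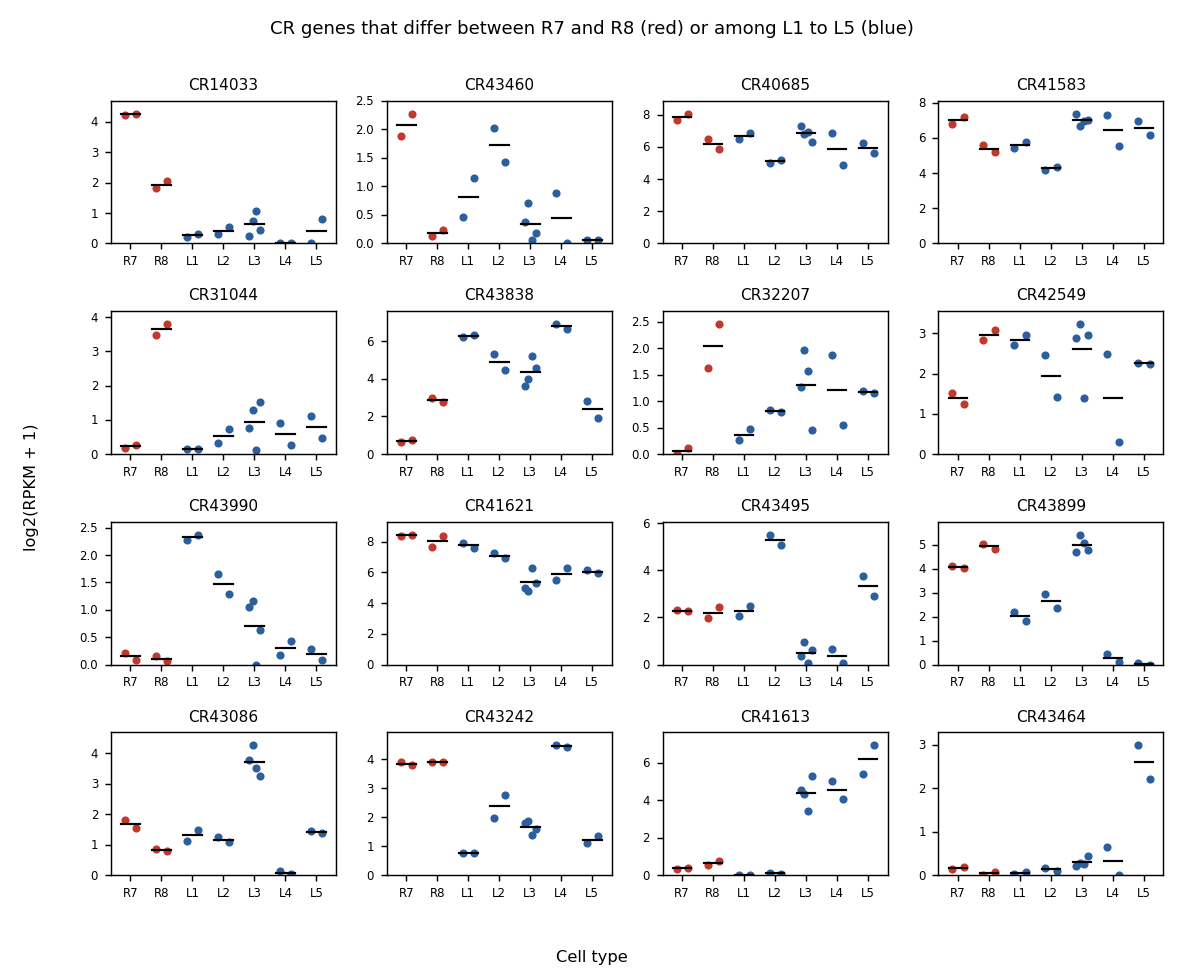
Log2(RPKM + 1) of 16 CR genes in each library (points) with type means (bars), for the genes with the greatest differences between R7 and R8 or upward in 1 lamina type. CR31044 reaches 10.2 and 12.9 RPKM in R8 and CR43899 24.7 to 41.5 RPKM in L3, with R7 and R8 in red and lamina types in blue.

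A group of 32 members (13.8%) had every L3, L4 and L5 library above every R7, R8, L1 and L2 library, against 2.62% of all genes tested. It held 19 of the 42 members with no entry, 9 of 62 pseudogenes, 3 of 100 long noncoding RNAs (CR31451, CR42862 and CR43301) and the rRNA pseudogene CR40677. Since levels in these libraries chose the members, the count is a description. Some members with no entry had similar values, such as CR40621 (7.07 to 26.4 RPKM in L3, L4 and L5) and CR41590 (6.66 to 28 RPKM). Whether such members share reads was not tested, so they may not count as separate genes.

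CR42862, a long noncoding RNA, was the most abundant of the 32. It had 2342, 3602, 1876 and 3342 RPKM in L3, 3461 and 3975 RPKM in L4 and 4261 and 2585 RPKM in L5, against 314 and 277 RPKM in R7, 622 and 527 RPKM in R8, 660 and 885 RPKM in L1 and 1148 and 689 RPKM in L2. R7 was lowest, and L1 and L2 were closer to R8 than to the other lamina types. The difference of R from L was -2.18 ± 0.21 (adjusted p = 1.51e-06), and the lamina types differed by the F-test (adjusted p = 0.000281). CR43301 had 1.72 to 8.83 RPKM in L3, L4 and L5 libraries, with L4 highest, against 0.698 to 1.32 RPKM in the others.

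Among the members with no entry, CR40641 had 48.2, 41.3, 19.7 and 79.4 RPKM in L3, 62.7 and 33.1 RPKM in L4 and 77.7 and 226 RPKM in L5, against 0.0597 to 0.632 RPKM (median 0.199 RPKM) in the 8 other libraries. CR41535 had 30.8 to 203 RPKM (median 80.7 RPKM) in L3, L4 and L5, against 0.587 to 1.89 RPKM in the others. CR43698 had 48.1 to 116 RPKM in L3, L4 and L5, against 10.4 to 26.6 RPKM. The gap between the 2 groups of libraries was wide for CR40641 and CR41535 and narrow for members such as CR40621, at 7.07 to 26.4 RPKM against 1.34 to 4.74 RPKM.

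Sums of markers of other cells were set beside the same groups of libraries. The sum of the 3 fat body genes (Fbp1, Lsp2 and Yp1) was 0.228 to 9.15 RPKM in L3, L4 and L5 and 0.216 to 2.1 RPKM in R7, R8, L1 and L2. That of the 5 glial genes was 3.46 to 9.93 RPKM and 2.45 to 27.7 RPKM, and that of the 4 blood cell genes was 59.8 to 278 RPKM and 0.297 to 203 RPKM, so all 3 sums overlapped.

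**Figure D5:**
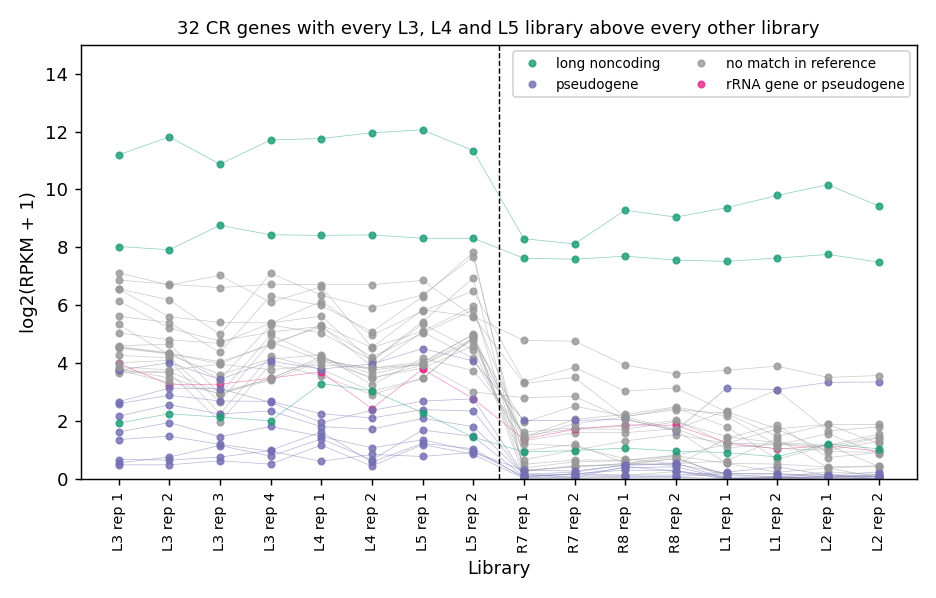
Log2(RPKM + 1) of the 32 CR genes with every L3, L4 and L5 library (left of the dashed line) above every R7, R8, L1 and L2 library (right), with 1 line per gene coloured by class. CR42862 runs at the top, at 1876 to 4261 RPKM against 277 to 1148 RPKM, and most of the others are members with no entry in the reference.

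The 7 neighbouring pseudogenes on the same strand, CR43211 to CR43217, belong partly to that group. CR43217, at an end of the row, had 2.87 to 7.8 RPKM in L3, L4 and L5, against 0 to 0.34 RPKM in the other libraries. CR43216 had 3.31 to 6.43 RPKM against 0.0105 to 0.34 RPKM, and CR43215 2.3 to 4.92 RPKM against 0.0105 to 0.459 RPKM. CR43212 and CR43214 were also in the group, at lower levels. CR43213 and CR43211 were not in the group. CR43213 was low in R8, at 0.592 and 0.527 RPKM, but L4, at 0.265 and 0.449 RPKM, was lower still. CR43211 had 0.935 and 0.781 RPKM in R7 and 1.49 and 1.34 RPKM in R8. L3, at 0.802 to 1.52 RPKM, overlapped both types for CR43211. The difference of R from L for CR43211 was 0.62 ± 0.11 (adjusted p = 0.000298). The correlation of neighbours over the 7 type means was 1.0 between CR43217 and CR43216 and 0.51 between CR43212 and CR43211, and near-identical copies may have shared reads.

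Neighbours did not always follow each other. Of 18 pairs of members with no other gene between them, 8 had r above 0.9 over the 7 type means, and the lowest was -0.62. The same count over pairs of other genes was not made. CR41597, the pseudogene next to CR42723 on the same strand, had 39.9 and 41.3 RPKM in R7 and 46.1 and 37.8 RPKM in R8, with 28 and 31.2 RPKM in L1, 29.6 and 32.3 RPKM in L2 and 4.04 to 11.2 RPKM in L3, L4 and L5. It rose in R by 1.58 ± 0.19 (adjusted p = 1.37e-05), where CR42723 was low (r = -0.56). The pseudogenes CR32009, CR32010 and CR32011 lie in a row and moved together. All 3 had 1.39 to 2.29 RPKM in R and 3.39 to 9.89 RPKM in L, and fell in R by 1.34, 1.24 and 1.38 on the log2 scale (adjusted p = 4.21e-07, 6.93e-07 and 1.45e-07).

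The 6 rRNA members are annotated as parts or copies of the 18S, 28S and 2S rRNA genes, which exist in many near-identical copies, so reads could not be assigned to a single copy with certainty. CR41609 had 1273 and 1275 RPKM in R7 and 752 and 981 RPKM in R8, against 182 to 690 RPKM (median 426 RPKM) in the lamina, where L1 was highest. CR40741 had 1132 and 1023 RPKM in R7 and 730 and 1055 RPKM in R8, against 188 to 799 RPKM (median 371 RPKM). The R libraries of CR41609 did not overlap those of L, and those of CR40741 overlapped L1. The differences were 1.31 ± 0.21 and 1.39 ± 0.19 (adjusted p = 0.000115 and 4.30e-05).

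CR40546, which matched no entry, had much the same order of types as these 2, with 854 and 804 RPKM in R7, 495 and 695 RPKM in R8 and 83.4 to 571 RPKM (median 230 RPKM) in the lamina. It rose in R by 1.54 ± 0.22 (adjusted p = 4.33e-05). The rRNA pseudogene CR40596 rose in R (1.88 ± 0.17, adjusted p = 8.82e-07) and CR40677 fell (-0.71 ± 0.24, adjusted p = 0.0192). CR40677 had 1.59 to 2.65 RPKM in R, 0.949 to 1.39 RPKM in L1 and L2 and 4.39 to 14.9 RPKM in L3, L4 and L5. Its R libraries were thus below L3, L4 and L5 but above L1 and L2. Its annotated exon is only 30 nt long. CR41548, an 18S rRNA gene, differed by 0.08 ± 0.35 and did not pass the test (adjusted p = 0.864).

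Small RNA genes lay within 11 members on the same strand. MicroRNA genes were mir-279 and mir-996 in CR31044, mir-9381 in CR31451, mir-993 in CR42721, mir-bft in CR43314, mir-8 in CR43650, mir-14 in CR43651, mir-31b in CR43836 and mir-275 in CR43857. Small nucleolar RNA genes lay in CR33222, CR42491 and CR43051. Apart from CR31451, CR42491, CR43051, CR31044 in R8 and CR43857 in L5, these members stayed below 6 RPKM in every library.

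CR43857, the host of mir-275, had 10.9 and 3.91 RPKM in L5, against 0.737 to 5.32 RPKM in the other lamina libraries. It was higher in L5 by 1.47 on the log2 scale (adjusted p = 0.0179), although L4 replicate 1 overlapped. CR43651, the host of mir-14, had 1.41 and 0.761 RPKM in R7 and 3.02 and 2.44 RPKM in R8, and its R to L difference of 0.54 ± 0.24 did not pass the test (adjusted p = 0.0717). CR42721 and CR43314 owed their place to a single library each: CR42721 had 3.14 RPKM in L4 replicate 1 and CR43314 5.61 RPKM in L3 replicate 4, and both were below 1 RPKM elsewhere.

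CR42491 had 12 and 12.9 RPKM in R7 and 10.4 and 13.3 RPKM in R8, against 2.38 to 17 RPKM in the lamina, with L5 highest at 10.9 and 17 RPKM. It rose in R by 0.95 ± 0.16 (adjusted p = 0.000232) and in L5 against the other lamina types by 1.38 (adjusted p = 0.000531). Of its exonic bases 50.5% overlap RpL22, a ribosomal protein gene, on the same strand, so its reads are uncertain.

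Overlap with other genes affected many members. Of the 186 with gene models in the annotation, 55 had exons that overlap an exon of another gene and 131 had none. Some overlaps were with a gene on the opposite strand (34 members) and some with a gene on the same strand (21 members). The strand setting of the counting is not given in the sources used here, so reads from a gene and its antisense partner cannot be told apart.

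For the 16 antisense RNAs, the level was compared with that of the gene whose exons they overlap most. Over the 7 type means, which share libraries and depth, the correlation had a median of 0.63 in 15 pairs and was above 0.5 in 9. Other pairs of genes were not compared, so these values are a description. CR43480 overlaps CG17162 (r = 0.08) and CG17159 (r = 0.92) equally, over 17.8% of its exonic bases, and with CG17159 in place of CG17162 the median was 0.73 with 10 pairs above 0.5. CR43959 followed Hk, a subunit of a potassium channel (r = 0.98), with 1.47 and 2.38 RPKM in L1 and 2.21 and 1.88 RPKM in L2, and Hk itself averaged 20.8 RPKM in L1, 32.2 RPKM in L2 and at most 0.551 RPKM in R7 and R8. CR43425 lies wholly opposite unc-13, a gene of synaptic vesicle priming (r = 0.78), and fell in R by 0.68 ± 0.12 (adjusted p = 0.000369). CR31845 averaged 6.78 RPKM in L5 and 5.58 RPKM in L4, and its partner CG9008 72.9 RPKM in L5 (r = 0.88).

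CR43476 was highest in L3. It had 21.2, 31.1, 51.6 and 62 RPKM in L3 and 27.6 and 10.4 RPKM in L4, against 9.11 and 11.4 RPKM in L1, 2.01 and 1.08 RPKM in L2 and 2.57 and 1.25 RPKM in L5. The F-test gave an adjusted p of 1.93e-05, and L3 was higher than the other 4 types by 2.67 (adjusted p = 2.05e-05). Its partner CG42534 averaged at most 0.813 RPKM in any type. CR43629 was also highest in L3, at 22.6 to 38.2 RPKM against 4.44 to 16.4 RPKM in other lamina libraries (1.56, adjusted p = 0.00153).

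Noncoding RNA genes with names of their own were listed as a background to the CR genes. Of 30 listed, 28 were in the table and 22 passed the filter on low values. For R against L, 20 would have reached 1 RPKM without either side, and of these 9 were higher and 3 lower, beside 31.7% and 30.2% of all genes tested. For R7 against R8, 21 met that condition, and 2 were higher and 1 was lower, beside 3.2% and 7.14% of all genes tested. Host genes of small nucleolar RNAs that rose in R were Uhg2, Uhg3, Uhg4, Uhg5 and Uhg8, by 1.06 to 1.39 on the log2 scale, while Uhg1 and Uhg7 differed by 0.28 and 0.11 and did not pass the test. 7SLRNA, the RNA of the signal recognition particle, averaged 120 RPKM in R7 and 147 RPKM in R8, against 4 to 58.4 RPKM in lamina types (2.59 ± 0.28, adjusted p = 4.09e-06). RNaseMRP:RNA, which processes rRNA, rose by 1.30 ± 0.21 (adjusted p = 0.000123), but L4 averaged 15.1 RPKM, near R7 (15.4 RPKM) and R8 (16.3 RPKM). The RNAs pncr003:2L and pncr009:3L also rose, by 0.86 and 1.84. For both, L3 came close to R, at 3.63 RPKM against 3.74 RPKM in R8 for pncr003:2L. For pncr009:3L, L3 averaged 6.69 RPKM against 7.25 RPKM in R7. The difference of pncr013:4 was 1.03, given with no test because no lamina type reached 1 RPKM.

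The nervous system RNA noe averaged 907 RPKM in R7 and 1995 RPKM in R8, against 3521 to 6932 RPKM in lamina types, and fell in R by 1.83 on the log2 scale (adjusted p = 0.000102). Hsromega, the RNA of nuclear omega speckles, and pncr014:3L fell by 0.46 and 0.42 (adjusted p = 0.0243 and 0.0372). The dosage compensation RNAs roX1 and roX2 differed by -0.27 and -0.82 and did not pass the test. Between the photoreceptors, pncr002:3R averaged 0.0129 RPKM in R7 and 20.8 RPKM in R8, a difference of -4.41 ± 0.53 (adjusted p = 0.000119) in the same direction as CR31044. Uhg1 and Uhg7 were higher in R7 than in R8, by 1.28 and 1.04 (adjusted p = 0.00701 and 0.0202).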

How the data were processed

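Cells of 7 types were sorted and sequenced in 16 libraries, 4 of L3 and 2 of each other type. The authors deposited 1 table of RPKM values. The tools and builds named are TopHat, an aligner, and BDGP5, per the submitters' processing notes. Neither the tool that counted reads nor its annotation and strand setting is given in the sources used here. RPKM already divide by gene length and library depth, and were used with no further scaling. No sample column was left unused.

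Depth was recovered from steps between low values: 59.8 to 76.9% of values up to 20 reads were whole (tolerance 0.05), too few for a count test. Classes, strands, overlaps and neighbours come from the coordinates of a later annotation (BDGP6) and from RefSeq. No coordinates are printed, since the builds differ. Correlations over type means are descriptions with n = 7.

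The test took genes that reached 1 RPKM in 2 or more libraries (9346 genes, 224 members). The other 8 members were described only. Values were taken as log2(RPKM + 1), a scale that understates the change of low genes. The model, in limma 3.58.1 (R 4.3.3), had 1 mean for each type and a trend in the variance. Benjamini-Hochberg adjustment ran over all genes tested, and calls had an adjusted p under 0.05. The script was tested on simulated data. A p is given only for a member that would still reach 1 RPKM in a type without either side of the comparison.

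Genes named with all their values were the 10 with the highest mean, the 8 with the greatest difference each way between R and L (no overlap, and a mean of 5 RPKM or more in the higher group), the 4 each way between R7 and R8 (at least 2 RPKM in the higher type) and the 2 upward in each lamina type (at least 2 RPKM and no overlap). Others were chosen after their values were seen. The members and lists were chosen with earlier results of these data known. Of the listed noncoding RNAs, CRG and bereft matched nothing in the table. A planned search for promoter motifs was not run. Alternatives were a pseudocount of 0.1, no filter, quantile normalization, replicate number as a block, each library left out, members with no exon overlap and, chosen after seeing the data, counts without the members that matched no entry and the rRNA members. Tables and plots used pandas 2.3.3, numpy 2.4.6 and matplotlib 3.10.9 in Python 3.11.15.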

Additional observations from a re-analysis of the deposited data

Results flagged for a closer look

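In 5 of the 38 genes named with all their values, the highest or lowest of the 4 L3 libraries lay far from the other 3, beyond Dixon's 95% limit for the gap to the nearest as a share of the range. Chance gives about 1 in 20 groups. CR43482 was lowest in L3 replicate 4, at 1286 RPKM, against 1496 to 1520 RPKM in the other L3 libraries. CR40741 was highest in L3 replicate 3, at 389 RPKM, against 188 to 207 RPKM. CR43716 was highest in L3 replicate 4, at 6.56 RPKM, against 0 to 1.07 RPKM. CR43264 was highest in L3 replicate 2, at 29.4 RPKM, against 10.8 to 12.6 RPKM. CR42767 was highest in L3 replicate 3, at 33.7 RPKM, against 7.74 to 8.97 RPKM. L3 replicates 3 and 4 each account for 2 of the 5 genes and L3 replicate 2 for 1.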

How the results depend on the processing

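Of the calls for the genes named by rule, none changed direction in any alternative, 721 values kept their side of the threshold and 39 missed it, which are named beside the genes. With members that have no exon overlap alone, R against L gave 21 higher and 17 lower, and R7 against R8 gave 2 higher and 1 lower. The F-test over L1 to L5 gave 26, and members higher in L1, L3, L4 and L5 were 9, 20, 21 and 19. That set held 131 members. It left out members with overlap and also all members without gene models, among them the 42 with no entry. Its lower counts therefore do not show the effect of overlap by itself. Without the members that matched no entry and the rRNA members, there were 26 higher in R than in L, 5 higher in R7 than in R8, 39 by the F-test, and 28, 27 and 24 higher in L3, L4 and L5, again over fewer members. With no filter on low values, 4 were higher in R7 than in R8; the cause was not tested. Quantile normalization moved the median of all genes for L1 from -0.10 to 0.02.

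Leaving out each of the 16 libraries in turn gave, for R against L, 31 to 45 higher and 36 to 45 lower. R7 against R8 gave 2 to 12 higher and 1 to 5 lower, and the F-test gave 54 to 73. Members higher in a lamina type were 3 to 20 in L1, 6 to 17 in L2, 42 to 61 in L3, 30 to 52 in L4 and 25 to 54 in L5. Where a type is left with 1 library, that library is assumed to vary like the others. With replicate number as a block, 17 were higher and 13 lower in R7 than in R8 and 22 were higher in L1. Deviations of same-numbered libraries correlated above 0.1 in 9 of 21 pairs of types (range -0.06 to 0.32, median 0.06). These values do not settle whether the numbers pair the libraries, and the main model had no block. Depth limits calls near 0, where 3 reads on 1 kb are 0.0195 to 0.064 RPKM.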
